A study of Xenopus tropicalis with 5 samples.

Results

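The 5-methylcytosine (m5C) sites of maternal mRNA were described gene by gene in Xenopus tropicalis embryos at stage 0. The members were all sites of the list made from 100 ng of RNA, and they were grouped by the gene identifier that the list gives for each site. The list held 18524 sites in 6458 genes, out of 23009 sites in 6853 genes found in any of the 4 lists of the series. All groups were embryos at stage 0, with no mutation or treatment named in the labels, and polyadenylated RNA of pooled embryos was bisulfite converted. The inputs of 5, 10 and 20 ng had 1 library each, and the 2 libraries of 100 ng had been combined by the authors into 1 set of values. The study calls such pairs technical replicates in its text and biological replicates in a figure legend, so that whether these libraries came from 1 pool of embryos is not settled. No SD can be given for any value, and each lower input was used only to see whether a pattern of the 100 ng list was also found there.

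Bisulfite changes unmethylated C so that it is read as T, while m5C is still read as C. The level of m5C at a position was computed as reads with C over all reads with C or T. In animals, mRNA m5C is written mainly by NSUN2, whose sites (Type I) are followed by G-rich sequence, and by NSUN6, whose sites (Type II) are the first C of the motif CUCNA, where N is any base. Both enzymes act on single cytosines in a local sequence and structure, and NSUN2 is otherwise known for methylating tRNAs. Before the zygotic genome is switched on, the embryo runs on mRNAs laid down by the mother in the egg, so that the sites described here are those of stored maternal transcripts.

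Letters around the site were at hand for 1223 sites (6.60%) in 989 genes, taken from the study's table of sites shared with Xenopus laevis. That table was chosen by methylation in both frogs and is not a sample of the list. The methylated C is in capitals below and is followed by the next 4 bases, 5′ to 3′, as DNA letters. The first 4 lines are the highest sites of at least 50 reads without the letters TCNA after the C, and the last 4 are the highest with them.
ahnak: Caaga
sec62: Cgggg
ercc6l2: Ccagt
ik: Cagga
gpr75: Ctcca
scyl3: Ctcca
trpm7: Ctcca
acsl1: Ctcca
The ahnak site (a giant membrane-associated scaffold, chromosome 4, position 41377444, minus strand, Xenbase v9.1) had 73% at 5 ng, 90.6% at 10 ng, 90.5% at 20 ng and 99.1% at 100 ng (107 of 108 reads). The sec62 site (a subunit of the protein translocation machinery of the endoplasmic reticulum, chromosome 5, position 107750417, minus strand) had 92.7% at 5 ng and 98.6% at 100 ng (68 of 69 reads). The ercc6l2 site (a DNA repair helicase, chromosome 1, position 123866854, plus strand) had 90.5% at 10 ng and 96.8% at 100 ng (61 of 63 reads). The ik site (a splicing factor, chromosome 3, position 6258367, minus strand) had 98.3% at 5 ng, 96% at 10 ng, 97.6% at 20 ng and 96.6% at 100 ng (538 of 557 reads). The gpr75 site (a G protein-coupled receptor, chromosome 5, position 19537692, minus strand) had 93.2% at 5 ng, 100% at 10 ng, 100% at 20 ng and 96.7% at 100 ng (260 of 269 reads). The scyl3 site (a pseudokinase, chromosome 4, position 108240735, plus strand) had 84.3% at 5 ng, 89.4% at 10 ng and 89.7% at 100 ng (217 of 242 reads). The trpm7 site (an ion channel fused to a kinase, chromosome 3, position 94874941, plus strand) had 87% at 5 ng, 83.3% at 10 ng, 89.1% at 20 ng and 89.2% at 100 ng (348 of 390 reads). The acsl1 site (an enzyme that activates long-chain fatty acids, chromosome 1, position 35512351, plus strand) had 88.4% at 5 ng, 98.5% at 10 ng, 95.7% at 20 ng and 88.5% at 100 ng (262 of 296 reads). An input with no value did not list the site. Sites at 88.5% or more were thus found with both kinds of sequence.

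In all, 115 different sets of 4 letters followed the C, and a single set, TCCA, followed 244 of the 1223 sites (19.95%). The letters TCNA followed 249 sites, whose median level was 31.1% (order-statistic interval 26.5 to 34.9%), and the other 974 sites had a median of 29.95% (27.4 to 32.4%). In those 974, G stood at 35.8% of the first, 64.0% of the second, 63.4% of the third and 48.7% of the fourth positions after the C. The most frequent base at the first position was A, with 45.5%. By the number of G in the 4 letters, the median level was 23.2% for none (17.1 to 33.5%, 37 sites) and 31.3% for 1 (26.4 to 36.6%, 188 sites). It was 30.4% for 2 (27.4 to 33.2%, 430 sites), 25.995% for 3 (23.0 to 32.6%, 260 sites) and 34.0% for 4 (25.4 to 48.7%, 59 sites). These intervals overlapped, and the sites were chosen by methylation, so a relation with the number of G was not tested. In the study's mutagenesis of 5 Type I substrates, methylation was positively correlated with the number of G in the motif. That assay read designed reporter variants in human HeLa cells, with base pairing kept, and not native frog sites chosen by methylation. Sites with letters had a median level of 30.2%, and the 17301 sites without letters had 20.5%. The study itself typed the maternal sites of each species by the motif CUCNA and compared the levels of both types. It reports Type I as the major type in most species. The share of TCNA and the medians above cover only sites shared with Xenopus laevis. They stand neither for the whole list nor for the study's comparison.

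The fewest reads at a listed site were 20 and the lowest level was 10%, so that a gene outside the list may have been covered too little or methylated below that level. The study's call also set a minimum number of reads with C, and a higher one for a site present in only a single replicate. Its methods do not say which applied to the lower inputs, so site counts of different inputs may rest on different rules. The median coverage of a site was 80, 80, 83 and 183 reads in the lists of 5, 10, 20 and 100 ng. The 100 ng coverage summed to 12230062 reads, 50% of which lay on 1015 sites. Of the 6458 genes, which carried 6394 symbols, 548 (8.49%) had placeholder names only, and 5800 of the 21825 protein-coding symbols (26.6%) in a RefSeq gene table were in the list. Of the marker genes of egg and stored maternal RNA, 12 of 15 were listed, with read-weighted levels of 12.5 to 75.3%. Of those of somatic or later cells 1 of 15 was listed, krt18 with 1 site at 22.4% of 228 reads, and of those of follicle cells none of 5. These shares count every name written, of which 14 egg, 13 somatic and 4 follicle names were in the gene table. Fewer transcripts and less methylation cannot be told apart by a missing gene.

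Most listed genes carried few sites. The median was 2 and the mean 2.87 sites per gene. A single site was found in 2269 genes (35.1%, exact Clopper-Pearson interval 34.0 to 36.3%), 2 sites in 1518 genes (23.5%), 3 or more in 2671 genes (41.4%) and 10 or more in 162 genes (2.51%). The 646 genes with most sites, each with at least 6, held 5519 sites (29.8%). At least 20 sites were found in 4 genes. These were kmt2b with 28 sites and kmt2d with 22, which methylate lysine 4 of histone H3, polq with 28, a DNA polymerase of end-joining repair, and col4a5 with 24, a collagen of basement membranes. The next were llgl1 with 19 sites, a cell polarity protein, ncor1 with 18, a nuclear receptor corepressor, and sbf2 with 18. Then came bcl9, a Wnt coactivator, cnnm2, a magnesium homeostasis protein, and lrp1, an endocytic receptor, with 17 sites each. In the lists of 5, 10 and 20 ng, kmt2b had 27, 24 and 26 sites, polq had 27, 30 and 24, and col4a5 had 27, 26 and 22. The gene kmt2d had fewer sites at each of these inputs, with 17, 13 and 15. Of the others, ncor1 had 20, 17 and 17 sites and lrp1 had 16, 18 and 17.

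More sites in a gene went with a higher best site and not with a higher typical site. In genes with 1, 2, 3 to 4, 5 to 9 and 10 or more sites, the median level of their sites was 20.8%, 20.9%, 21.2%, 20.9% and 20.4%. The median of the highest site per gene was 20.8%, 32.8%, 47.0%, 60.5% and 79.9% in the same order. The share of sites at 80% or more was 4.05%, 4.84%, 5.39%, 4.62% and 5.17%. A maximum over more sites is higher by construction, so this order is a description only. The median read-weighted level of genes in the same classes was 20.8%, 23.7%, 26.2%, 27.4% and 26.9%. Across 6458 genes, which share the libraries and their depth, Spearman's rho with the number of sites was 0.52 for the highest site and 0.16 for the read-weighted level.

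**Figure D1:**
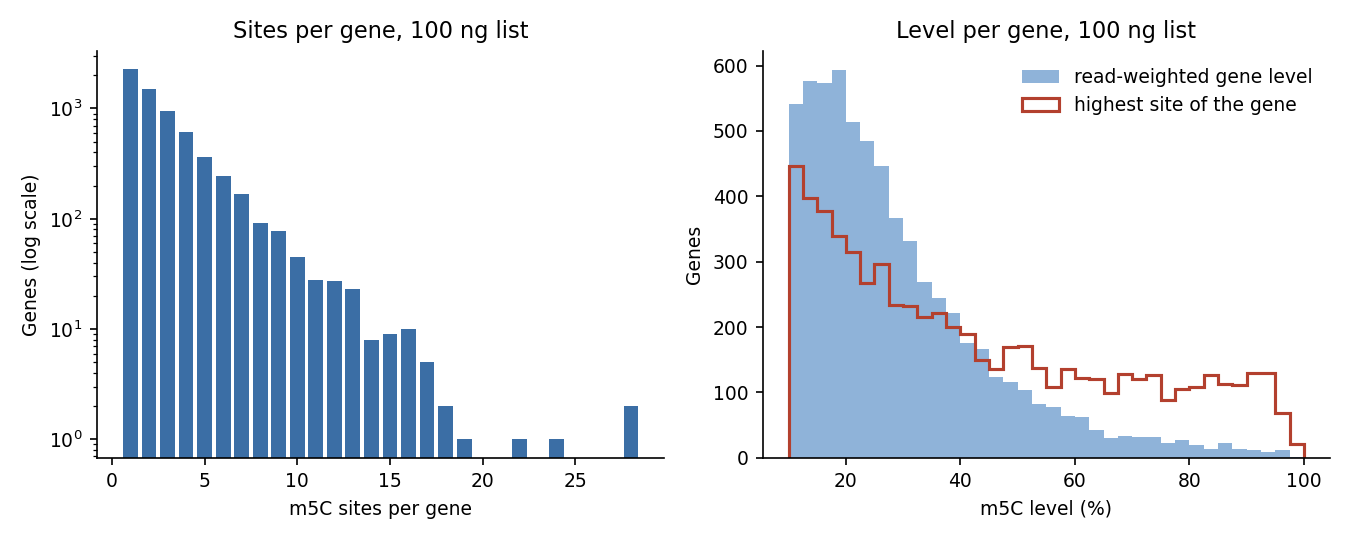
Left, the number of genes (log scale) with each number of m5C sites in the 100 ng list, from 1 site in 2269 genes to 28 sites in 2 genes. Right, the number of genes by m5C level (%) for the read-weighted level of the gene (filled, median 24.7%) and for its highest site (line), where 12.5% of genes reached 80% or more.

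The level of a gene was computed as all unconverted reads over all reads of its listed sites. Its median over the 6458 genes was 24.7% (order-statistic interval 24.2 to 25.04%), with quartiles of 17.2 and 36.3% and a range from the list's minimum of 10% to 98.1%. In all, 715 genes (11.1%) were at 50% or more and 103 (1.59%) at 80% or more. By their highest site, 2270 genes (35.2%) reached 50% and 807 (12.5%) reached 80%. Weighted by reads, all sites together had a level of 29.0%, and the median single site had 20.9%. Sites at 10 to 20% made up 47.3% of the list and sites at 80% or more 4.87%.

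The highest gene levels among the 1909 genes with at least 3 sites and at least 50 reads at each were found in bin1 (81.4%), fam76b (79.99%), sp3 (79.8%), ubtd1 (77.9%), hid1 (77.5%), usp4 (77.4%), aldh16a1 (74.8%) and syap1 (73.8%). None of these genes was high at every site, with a lowest site of 10.8% in hid1 to 36.6% in fam76b. In sp3, a transcription factor that binds GC boxes, sites of 87.1% and 83.0% were followed by 13.7% at the last. In bin1, a protein that bends membranes, sites of 90.8% and 91.9% lay on both sides of a site at 23.3%. In syap1 a single site of 91.2% had 1926 of the gene's 2518 reads, and the others had 15.1% and 23.6%, so that the gene level was set by its deepest site. At 5, 10 and 20 ng the high syap1 site had 85.5%, 87.6% and 91.6%. The gene levels moved more in some genes, and each list holds its own sites. At 5, 10 and 20 ng bin1 had 42.7%, 81.6% and 55.7%, over 4, 2 and 2 sites, and usp4 had 38.6%, 76.3% and 55.4%, over 5, 2 and 4 sites. The first site of bin1 itself had 92.2%, 95.2% and 96.4%. No site of aldh16a1 was listed at a lower input, and the other 5 genes had from 59.3% in syap1 at 5 ng to 91.1% in hid1 at 20 ng.

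The lowest levels by the same rule were close to the minimum of the list. They were 10.2% in ppp4r2, a subunit of protein phosphatase 4, 10.5% in chaf1a, a histone chaperone of replication, 10.6% in tmem169, 10.7% in prodh, the proline dehydrogenase of mitochondria, and 10.7% in fam21a. In chaf1a the 3 sites had 10.9%, 10.1% and 10.6% of 659, 1826 and 3485 reads. In ppp4r2, 9511 of the 9635 reads lay on 1 site. Of the 3 genes with the highest median coverage of their sites, which had 1 site each, ube2c, the ubiquitin-conjugating enzyme of the anaphase-promoting complex, had 10.5% of 41911 reads. The odc1 site, in the first enzyme of polyamine synthesis, had 28.6% of 37870 reads, and that of marcksl1, an actin-binding protein, had 93.0% of 41327 reads. At 5, 10 and 20 ng these sites had 10.8%, 10.1% and 10.04% in ube2c, 28.0%, 28.3% and 29.0% in odc1, and 92.9%, 92.9% and 93.0% in marcksl1. These sites differed widely in level while each varied little between inputs.

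The spread of levels lay within genes. Over the 16255 sites of the 4189 genes with at least 2 sites, the variance of the level was divided into a part between genes, a part between sites of the same gene and the binomial sampling of reads. The SD was 2.19 points between genes, 20.9 points within genes and 3.62 points from sampling, so that 1.09% of the variance without sampling was between genes. In the lists of 5, 10 and 20 ng this share was 0.779%, 2.003% and 0.778%. Levels under 10% are not listed, and the shares describe listed sites only. The median range from the lowest to the highest site of a gene was 29.8 points (28.2 to 31.4). It was 50 points or more in 1222 genes (29.2%) and under 10 points in 851 (20.3%). In the 2671 genes with at least 3 sites, the medians of the highest, second and lowest site were 53.6%, 29.2% and 11.9%. A single site at 50% or more with all others under 20% was found in 153 of them (5.73%), and at least 2 sites at 50% or more in 506 (18.9%).

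The widest ranges among genes with at least 3 sites and 50 reads at each were in gigyf2, cenpt, depdc1b, ndrg2 and emilin2. In gigyf2, a translational repressor, 9 sites ran from 10.1% to 98.1%. The highest of them had 53 reads and was not listed at a lower input, where the gene had 1, 0 and 2 sites at 5, 10 and 20 ng. In cenpt, a kinetochore protein, the 6 sites in order along the gene had 22.0%, 25.7%, 16.9%, 10.85%, 69.3% and 98.3%. In depdc1b a site of 97.4% stood among sites of 10.7%, 12.9% and 12.1%, and it had 98.1%, 90.5% and 100% at 5, 10 and 20 ng. In emilin2, an extracellular matrix glycoprotein, the sites had 26.3%, 11.4% and 97.4%. The narrowest ranges among genes with at least 8 sites were 7.19 points in ppp2r5e, a regulatory subunit of protein phosphatase 2A, with 8 sites from 12.1 to 19.2%, 10.7 points in stk11ip and 12.3 points in sipa1l1, a protein that switches off the Rap GTPase. All 3 were low throughout, with read-weighted levels of 15.2 to 16.8% and no site above 23.1%.

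The highest site of a gene was mostly the same site in other libraries. Among genes with at least 3 of their sites also listed at a lower input, the highest of them at 100 ng was also the highest in 1294 of 1533 genes at 5 ng (84.4%, exact interval 82.5 to 86.2%), in 1203 of 1422 at 10 ng (84.6%) and in 1355 of 1592 at 20 ng (85.1%).

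**Figure D2:**
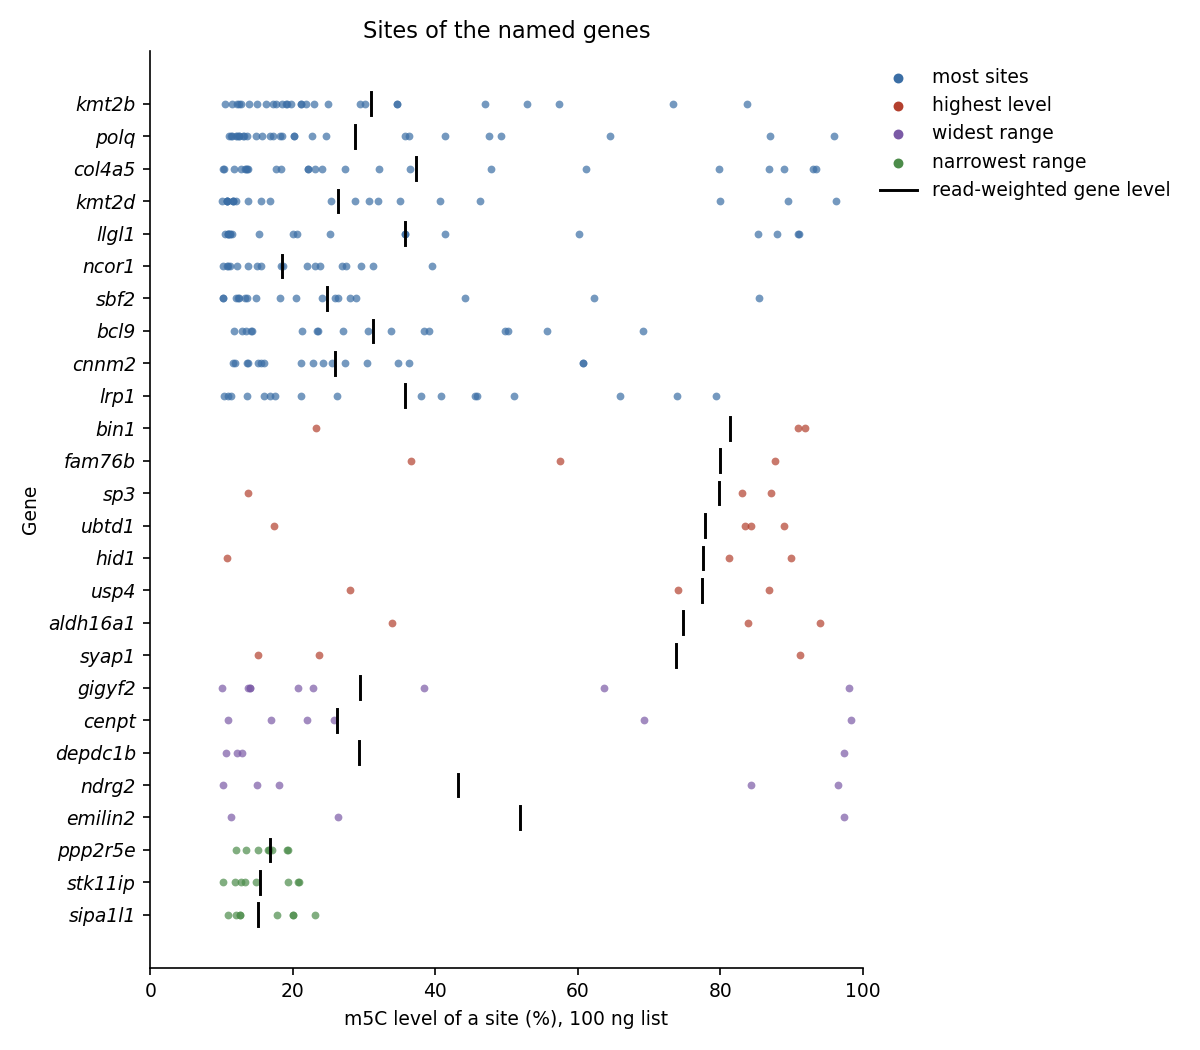
Each point is the m5C level (%) of a site in the 100 ng list and each row is a gene, for the genes with most sites, the highest levels, the widest ranges and the narrowest ranges. The black bars give the read-weighted gene level, which lies among scattered points in most rows, as in llgl1, where sites ran from 10.4 to 91.1%.

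To ask whether sites close together were alike, the reads with C and with T at each site were set against those at the next site of its gene along the strand (Fisher's exact test, two-sided, p-values adjusted by Benjamini-Hochberg for all pairs). Of 12066 pairs, 7457 differed (61.8%) at an adjusted p under 0.05, with the downstream site higher in 3753 (31.1%) and the upstream site higher in 3704 (30.7%). The median absolute difference was 13.9 points (13.5 to 14.4). The test compares sites within the pooled libraries and not conditions. Reads of close sites can come from the same fragments and carry no molecular identifiers. The test takes the reads of both sites as independent, so for close sites its p-values are not exact even for counting error. For distant sites, p-values and intervals cover counting error only. Of the called pairs with both sites listed at a lower input, 4021 of 4183 had the same direction at 5 ng (96.1%), 3835 of 4017 at 10 ng (95.5%) and 4103 of 4258 at 20 ng (96.4%).

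Pairs at 1 nt had the largest median difference and the highest share of called pairs, and both measures varied little beyond 2 nt. Close sites can share reads, which the test takes as independent, so the shares of called pairs are not strictly comparable between distances. The median absolute difference was 18.7 points at 1 nt (14.96 to 23.3), 10.5 points at 2 nt (8.71 to 19.6, 49 pairs) and 13.2 to 14.9 points in each class beyond. The share of called pairs was 70.2% at 1 nt (interval 64.7 to 75.2%), 61.2% at 2 nt, 63.0% at 3 to 10 nt, 62.9% at 11 to 30 nt, 65.3% at 31 to 100 nt, 62.6% above that and up to 300 nt, 60.4% up to 1000 nt, 61.4% up to 10000 nt and 59.9% beyond. The SD of levels computed from squared differences of the pairs, without sampling variance, ran from 19.99 to 22.5 points over these distances. It was 20.9 points over all sites, paired or not. Over the 12066 pairs, many of which share a site, Pearson's r of the levels of neighbours was 0.015, and over the 1045 pairs within 30 nt it was 0.085. It was 0.094 over the 305 pairs at 1 nt and 0.30 over the 49 pairs at 2 nt.

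The sites lay far apart in the genome for the most part. Distances include introns, because no gene model of the build used was at hand. The median distance to the next site was 1523.5 nt (1440 to 1594), with quartiles of 209.25 and 5840.5 nt, and the largest was 581063 nt in pcdh9. Within 100 nt there were 2203 pairs (18.3%). The count of pairs was highest at 1 nt, with 305, and fell to 49 at 2 nt and 9 at 3 nt. From 3 to 10 nt there were 19.25 pairs per nt of distance, from 11 to 30 nt there were 26.85, and from 31 to 100 nt 16.5. Among genes with at least 5 sites, the smallest median distances were 1 nt in rsad1, 14 nt in fuz, a planar polarity and cilium gene, 16 nt in eif5b, a factor that joins ribosomal subunits, 17 nt in LOC101731332 and 22 nt in brwd3, a bromodomain protein. The 5 sites of brwd3 had 14.9%, 49.4%, 50.3%, 54.4% and 88.3%, while those of eif5b stayed between 11.4 and 18.2%.

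**Figure D3:**
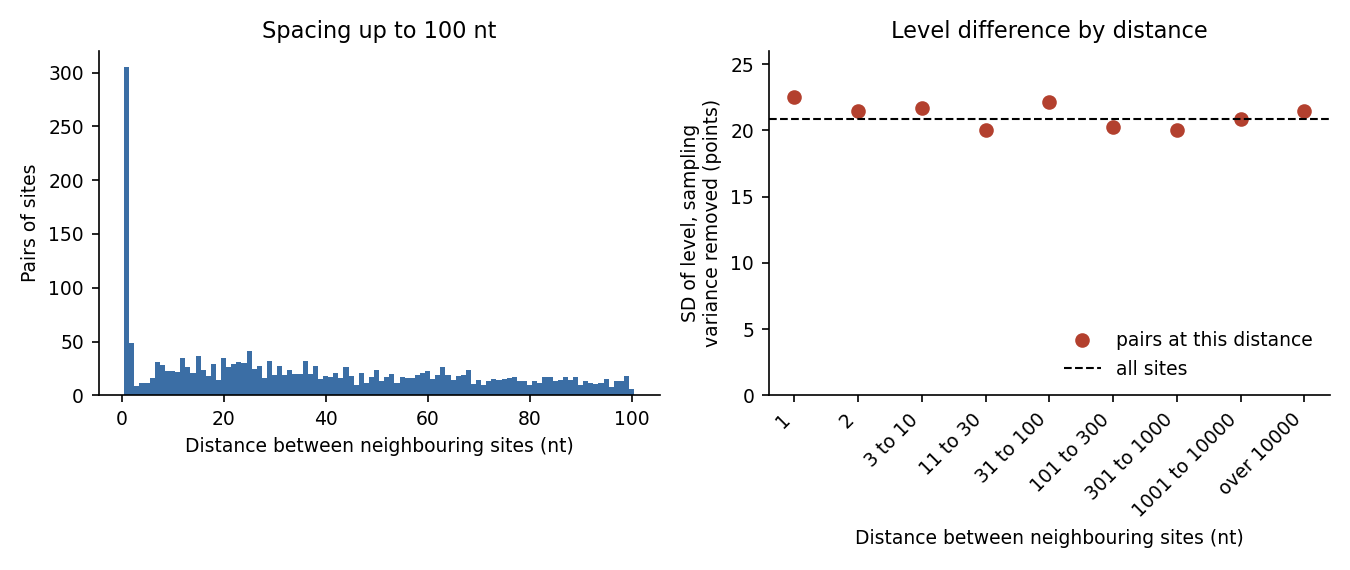
Left, the number of pairs of neighbouring sites at each distance up to 100 nt in the 100 ng list, with 305 pairs at 1 nt and 9 at 3 nt. Right, the SD of the m5C level computed from pairs at each distance with the sampling variance removed (points), against the SD of all sites (dashed line, 20.9 points); all distances lie between 19.99 and 22.5 points.

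Directly adjacent methylated cytosines formed 305 pairs in 293 genes, in 295 runs of 2 sites and 5 runs of 3. Of these pairs 214 differed (70.2%), with the downstream site higher in 99 and the upstream site in 115. Over all 305 pairs the downstream site was higher in 155 and the upstream site in 149. Their median levels were 25.4% for the downstream and 27.9% for the upstream site. Among those pairs listed at 5, 10 and 20 ng, the downstream site was higher in 82, 75 and 82 and the upstream site in 87, 81 and 92. No steady lean to either side was thus seen. The runs of 3 were in taf1c, a factor of RNA polymerase I, with 21.0%, 84.1% and 80.6% in order, mbd1, a methyl-CpG binding protein, with 80%, 15.6% and 43.4%, rsad1 with 12.7%, 17.9% and 41.1%, fuz with 18.3%, 27.1% and 23.7%, and cd3eap with 38.6%, 45% and 25.4%. No place in the run was the highest in all 5.

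Among called pairs within 10 nt, the largest difference was in smarcad1, a chromatin remodeler. Its upstream site kept the C in 53 of 53 reads, and the site 1 nt downstream in 7 of 52 (13.5%, Fisher's exact test, adjusted p = 6.92e-22). Neither site was listed at a lower input. In irs4, an adaptor of the insulin receptor, the downstream site had 94.3% of 560 reads and the upstream site, 9 nt away, 12.2% of 597 (Fisher's exact test, adjusted p = 3.46e-198). The downstream site had 92.8%, 100% and 95.8% at 5, 10 and 20 ng, and the upstream site had 10.5%, 11.6% and 10.98%. In tbc1d14 the upstream site had 93.5% of 46 reads and the adjacent downstream site 13.3% of 45 (Fisher's exact test, adjusted p = 3.72e-15). The p-values of these close pairs take the reads at both sites as independent, although such reads can be shared. A further pair, named after its values were seen, was in llgl1 on chromosome 9 of the Xenbase v9.1 assembly, minus strand, with the sites at positions 10217804 and 10217803.
llgl1: Ccagg
Here the capital is the upstream site and the c after it is the downstream site. The upstream site had 90.9% of 728 reads and the downstream site 20.1% of 727. At 5, 10 and 20 ng the upstream site had 93.6%, 89.8% and 92.4% and the downstream site 17.7%, 20.9% and 18.7%.

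**Figure D4:**
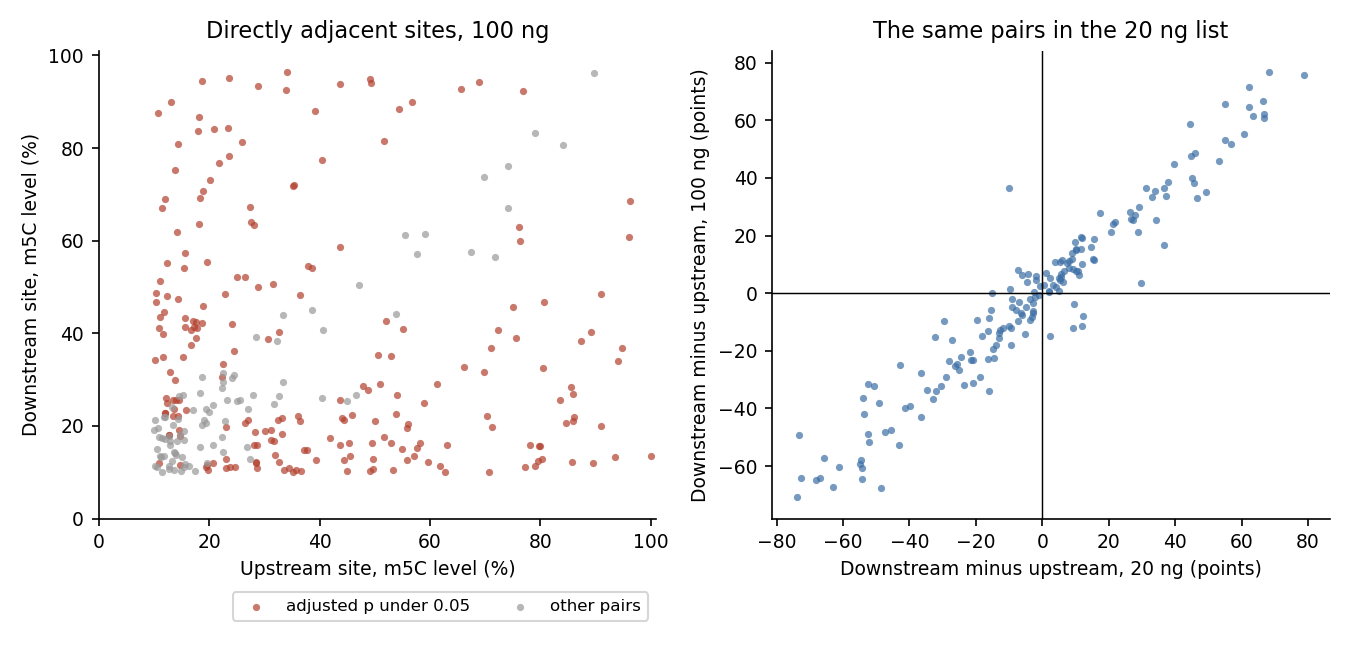
Left, the m5C level (%) of the downstream against the upstream site of each of the 305 directly adjacent pairs in the 100 ng list, with the 214 pairs past the test in red. Right, the downstream minus upstream difference (points) at 100 ng against that at 20 ng for the 174 pairs listed in both, of which 158 had the same direction.

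Place along the gene made no visible difference among listed sites. In the 4189 genes with at least 2 sites, the last site was higher in 2112 and the first in 2072, and the median of last minus first was 0.14 points (interval -0.38 to 0.66). In genes with at least 5 sites, the median level was 20.5% in the upstream, 20.9% in the middle and 20.8% in the downstream part of the site order. Genic location was not analysed here, and the first listed site need not lie near the start of a transcript.

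The number of listed sites per gene varied with coverage, and the median gene level hardly did. In genes with a median coverage of 20, 50, 100, 300 and 1000 or more reads, each up to the next bound, there were 1.65, 2.56, 3.18, 3.29 and 2.99 sites per gene. The share of genes with a single site was 64.0%, 38.9%, 28.6%, 27.3% and 33.0%. The median gene level was 24.7%, 24.4%, 24.8%, 24.8% and 24.5%. For single sites grouped by their own coverage with the same bounds, the median level was 24.3%, 20.6%, 20.6%, 20.8% and 20.2%. Sites under 20% made up 38.8%, 48.2%, 48.4%, 47.8% and 49.2% of them, so weak sites were a smaller share of listed sites at the lowest coverage. There the fewest reads with C at a listed site was 4. The call's minimum of such reads bears first on weak sites of low coverage, and its part in these shares was not tested. Across the 6458 genes, Spearman's rho with median coverage was 0.18 for the number of sites and -0.02 for the read-weighted level.

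Gene groups were then described by their listed members, beside 24.7% and 2.87 sites per gene over all genes, with no test. The order-statistic interval of the group median left out 24.7% only in 2 groups. These were histone lysine methyltransferases (26.3 to 47.5%) and chromodomain and SWI/SNF remodelers (26.4 to 39.6%). In each other group with an interval, 24.7% lay inside it. The intervals take genes as units and were not adjusted for the number of groups, so that some can leave out 24.7% by chance. The groups were also chosen with earlier results of these data known. Neither an interval nor the rank of a group is therefore a test. Brackets after group medians below give this interval. Sites per gene are plain counts, not divided by transcript length or by the number of covered cytosines. A difference in these counts between groups is therefore not a difference in the density of methylation. Read-weighted values at lower inputs rest on the sites of each own list. Histone lysine methyltransferases (kmt and setd genes) had the most sites per listed gene of all groups, with 118 sites in 11 listed genes of 19, or 10.7 per gene, of which kmt2b and kmt2d held 50. Their median level was 32.3%, and 10 of the 11 were above the median of all genes. Group medians were not adjusted for the number of sites, with which the gene level varied. Genes with a single site made up 0% of this group and 35.1% of all genes. Besides kmt2b and kmt2d there were kmt2c with 13 sites, setd2, which methylates lysine 36 of histone H3, with 12, and kmt2a with 11. The highest level was 73.1% of 212 reads in setdb2. With 2 sites in each list, setdb2 had 51.6%, 56.7% and 60.7% at 5, 10 and 20 ng. Chromodomain and SWI/SNF remodelers had 16 listed genes of 22, 4.38 sites per gene and a median of 32.1%, with 13 sites in smarca4, the ATPase of the SWI/SNF complex, at 32.0%. Its partner smarcc1 had 6 sites at 40.4%, 41.2%, 39.5% and 39.6% in the lists of 5, 10, 20 and 100 ng, with 47901 reads at 100 ng. Nucleoporins, which build the nuclear pore, had 5.33 sites per gene and a median of 23.2%, with 14 sites in nup210 and 12 in nup98. Deubiquitinases (usp genes) had 34 listed genes of 46, a median of 29.7% and 3.74 sites per gene, and usp4 was highest at 77.4%. Collagens had 5 listed genes of 39, and 24 of their 41 sites lay in col4a5.

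Within the translation machinery, the 2 ribosomal groups had fewer sites per gene than all genes, and translation factors and tRNA synthetases were close to all genes. Of the ribosomal proteins 25 of 80 were listed, with 1.36 sites per gene and a median of 19.0% (15.2 to 45.4%). Of these, 9 were above the median of all genes. Most had a single site, and these ran from 10.2% of 1322 reads in rpl6 to 89.2% of 4038 reads in rps10 and 93.0% of 1346 reads in rps6. The rps6 site had 89.2%, 93.98% and 91.8% at 5, 10 and 20 ng. The mitochondrial ribosome had 33 listed genes of 76, 1.61 sites per gene and a median of 16.5%, with a highest level of 83.2% in mrpl41. Translation factors had 33 of 66, 2.70 sites per gene and a median of 22.1%, with 13 sites in eif4g3, a scaffold of the cap-binding complex. In the lists of 5, 10 and 20 ng, eif4g3 had 0, 3 and 3 sites. Aminoacyl tRNA synthetases had 24 of 34, 2.625 sites per gene and a median of 23.5%, with kars at 77.1%.

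The 4 groups of genes that the egg and early embryo are known to use had gene levels from 10.7% to 80.2%. From 64.5 to 89.7% of their members were listed, beside 26.6% of all protein-coding symbols. Other groups were listed about as often, with 73.9% of deubiquitinases, 72.7% of remodelers and 70.6% of tRNA synthetases. The shares of the 4 groups count every name written. In the gene table were 39 of 39 cell cycle, 29 of 31 stored mRNA, 21 of 22 localised and 19 of 21 zygotic activator names. The shares beside them count only names in that table. Of the egg and early cell cycle genes 35 of 39 were listed, with 2.46 sites per gene and a median of 24.97%. The mitotic kinase plk1 had 6 sites with 13.4%, 22.7%, 44.2%, 12.03%, 38.8% and 54.3% in order along the gene, each with at least 10692 reads. The B-type cyclin ccnb2 had sites of 70.7% and 33.3%, and at 5, 10 and 20 ng these were 70.3%, 69.8% and 70.2% for the upstream site and 30.9%, 30.996% and 30.3% for the downstream site. In cdc20, the activator of the anaphase-promoting complex, the upstream site had 93.5% of 1065 reads, and the others had 17.8% of 17394 and 17.9% of 15765 reads, so that the gene level was 20.2%. The upstream and the middle site of cdc20 had letters.
cdc20 upstream: Caagg
cdc20 middle: Ctcca
These 2 sites lay far apart in level at each input. At 5, 10 and 20 ng they had 94.05%, 95.7% and 95.4% upstream and 17.5%, 17.7% and 17.6% in the middle.

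Regulators of stored mRNA had 20 listed genes of 31 and a median of 27.0%. The most sites were in pum2, a repressor that binds 3′ untranslated regions, with 9 at 17.0%, and the highest level was in lsm14b, a component of stored ribonucleoprotein particles, with 87.0%, 62.1% and 54.3% at its sites. Localised and germ plasm RNAs had 16 of 22 and a median of 26.6%, with the germ plasm helicase ddx25 highest at 75.3%. The first zygotic activators and axis factors had 15 of 21 and a median of 33.1% (22.7 to 47.9%). Among them sox3 had a single site at 80.2% of 4522 reads, with 80.03%, 79.8% and 78.2% at 5, 10 and 20 ng, and foxh1, the partner of Smad proteins, had 8 sites at 48.0%. The catenin gene ctnnb1 was lower, with 2 sites at 22.7% of 12641 reads. Of the m5C enzymes and readers 8 of 17 were listed, with a median of 33.3% (12.2 to 71.0%). The mRNA of nsun2 had 1 site at 71.0% of 1288 reads, with 73.7%, 66.2% and 68.9% at 5, 10 and 20 ng. The mRNA of nsun6 had 2 sites. The upstream site was at 57.4% of 383 reads, and no letters were at hand for it. The downstream site, with the letters of its own enzyme's motif, was at 37.2% of 226 reads.
nsun6: Ctcca

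The remaining groups had medians on both sides of that of all genes. Kinesins, solute carriers, zinc fingers, tripartite motif ligases and F-box proteins had medians of 23.0%, 21.9%, 24.3%, 22.6% and 22.0%, and Rab GTPases, kinases of the MAP kinase cascade and myosins had 25.5%, 26.9% and 26.1%. Tubulins, with gamma-tubulin complex genes among them, had 1.55 sites per gene in 11 genes and a median of 33.3% (12.1 to 68.9%). Laminins and integrins had 21.2% (11.4 to 26.8%) in 6 genes. Within each group of at least 10 genes the levels of single genes spread over more than the differences between group medians. Among kinesins, for example, they ran from 10% to 54.6% in kif18b, which had 43.1%, 38.2% and 47.6% at 5, 10 and 20 ng. The mitotic motor kif11 had 8 sites at 33.2% of 79689 reads.

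**Figure D5:**
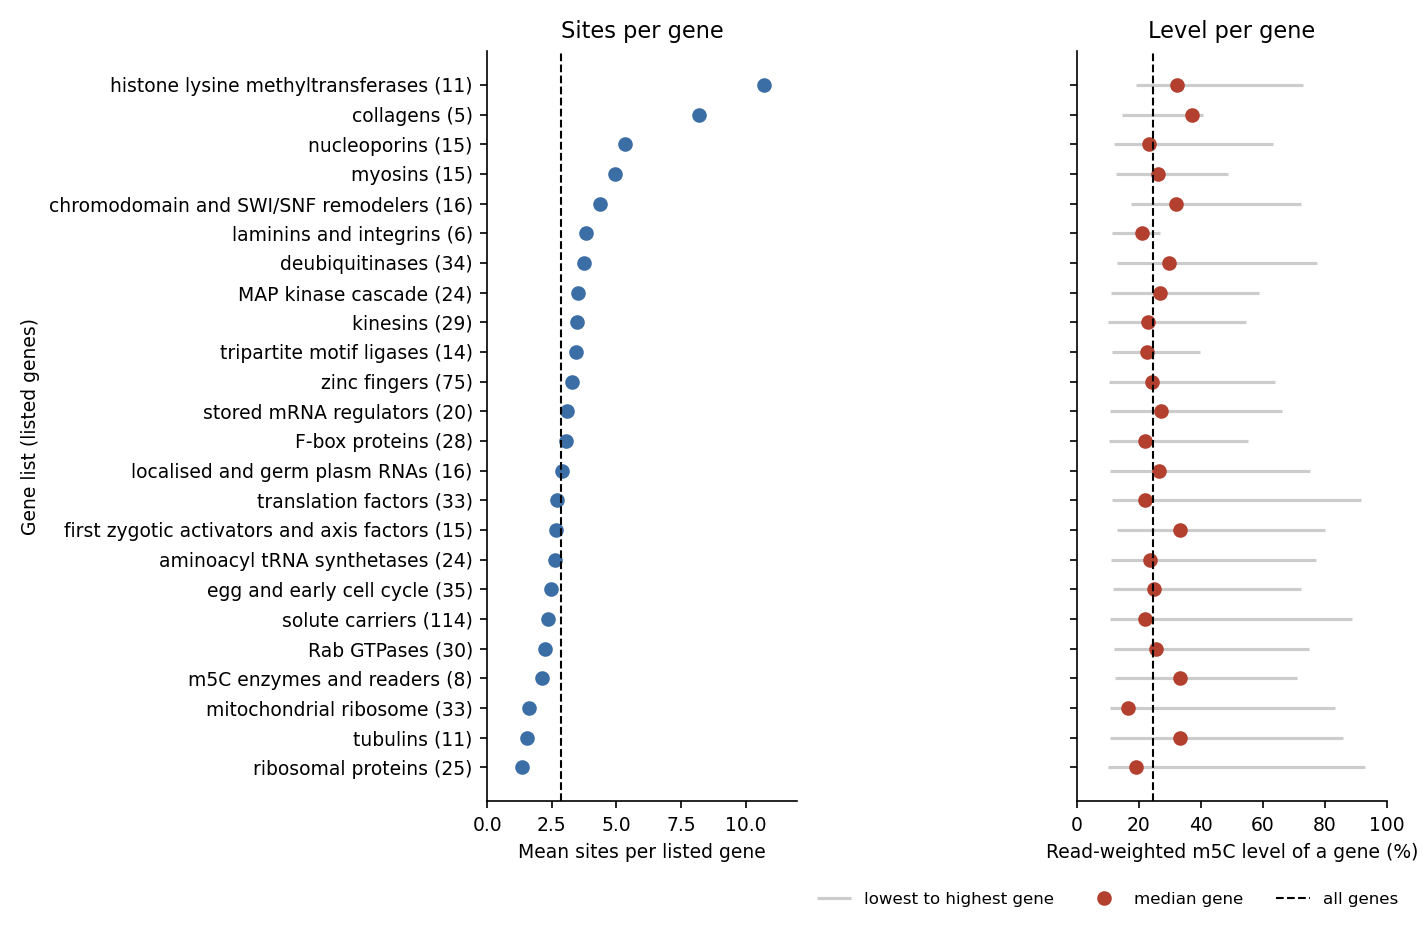
Left, the mean number of m5C sites per listed gene for each gene group, with the number of listed genes in brackets; the dashed line is all genes (2.87). Right, the read-weighted m5C level (%) of the median gene (point) and from the lowest to the highest gene (grey line), where the dashed line is all genes (24.7%) and the lines of most groups overlap.

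Sites were spread over all chromosomes. The mean number per gene ran from 2.61 on chromosome 5 to 3.01 on chromosome 9, and the median gene level from 23.2% on chromosome 7 to 25.7% on chromosome 10. Genes on unplaced scaffolds had 3.47 sites and 26.3%. The mitochondrial genome had 1 site, in the small ribosomal RNA at position 909, with 71.6% of 483 reads, and it was listed at each lower input too.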

How the data were processed

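RNA BS-seq libraries of X. tropicalis stage 0 embryos were grouped by the RNA input in their labels. Per the labels and the study's methods, the authors demultiplexed with bcl2fastq 2.17, trimmed with cutadapt and Trimmomatic, and mapped reads to the converted genome with HISAT2 (version given as 2.10) and then to the transcriptome with Bowtie2, using Xenbase v9.1. Reads with many remaining C and conversion-resistant genes were removed, which can lower site numbers in dense clusters. The authors deposited for each site its coverage, a count of reads, its m5C level, a fraction printed here as a percentage, and a p-value from a binomial test, which was not used. No column of the authors' own comparisons was used.

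Unconverted reads were level times coverage, whole to within 2.6e-05 reads. Distances were taken along the genome; whether positions start from 0 or 1 is not given in the sources used here. Gene groups were taken by symbol or symbol prefix, so a few related genes share a prefix. Genes were named by rules (most sites, highest and lowest level, widest and narrowest range, deepest coverage, closest sites, and the top members of each group). Members and lists were chosen with earlier results of these data known. Shares have exact Clopper-Pearson and medians order-statistic intervals at 95%. Variance parts came from a one-way random-effects estimate with binomial variance subtracted. Python 3.11.15, pandas 2.3.3, numpy 2.4.6 and SciPy 1.17.1 were used. The pair test was tested on simulated data with the real coverages of the 12066 pairs. It called 33% of 100 pairs shifted by 10 points, 55% of 100 shifted by 20 points and 2 of 11866 unshifted pairs. Far fewer pairs were shifted than were called in the data, and only at intermediate levels. The adjusted threshold was therefore stricter than in the data, and these shares do not carry over. Reads were drawn by binomial sampling alone, without shared fragments or extra variance. The 2 calls thus do not give the rate of false calls in the data. The alternatives raised the minimum coverage (50 or 100 reads) or level (20%), and used other averages or genes by symbol. They also used a test with the variance between the lower-input libraries, and each lower-input list.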

Additional observations from a re-analysis of the deposited data

How the results depend on the processing

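No paired analysis was possible because the 2 libraries of 100 ng are deposited as 1 set of values and the other inputs have 1 library each; for the same reason results without either 100 ng library were not computed. The pooled values hide any spread between those libraries, and listed levels stop at 10%, so weaker sites of the same genes are not seen. Of 79 alternatives, 61 moved a value and 18 did not. A value moved if it left the interval of the main value or, without one, changed when rounded, with a wider limit for counts. Most of these results have no direction. Pearson's r, rho of sites per gene with coverage, and the small excess of genes with a higher last site kept their direction at each lower input. Directly adjacent pairs were not among the alternatives.

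With coverage minimums of 50 and 100 reads, 36.4% and 39.4% of genes had 1 site, with 2.80 and 2.64 sites per gene, a level of all sites of 28.9% and 28.9%, and a share of variance between genes of 0.781% and 0.745%. A minimum of 100 reads left 19.3% of pairs within 100 nt. With a level minimum of 20%, 50.3% of genes had 1 site and the mean was 1.99 sites. The level of all sites was then 43.2% and the gene median 38.3%, the median distance was 2305.5 nt, and 13.97% of pairs lay within 100 nt. Genes by symbol had 2.90 sites. The unweighted mean of sites was 29.4% and their median 20.9%, and the gene median was 25.6% for the mean and 22.1% for the median of its sites. The share of variance between genes was 1.15% on the logit scale and 0.630% in genes with at least 5 sites. Of neighbouring pairs, 65.1% differed with at least 50 reads and 71.97% with at least 100 reads at both sites, 60.7% at over 300 nt, and 57.6% when the variance of reads was multiplied by the factor of 1.42 between libraries.

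In the lists of 5, 10 and 20 ng, 38.8%, 41.4% and 39.8% of genes had 1 site, with 2.70, 2.62 and 2.66 sites per gene. The level of all sites was 28.9% at 10 ng and 28.8% at 20 ng. The gene median was 25.9%, 26.1% and 25.7%, and the share of variance between genes 0.779%, 2.003% and 0.778%. At lower coverage 4081, 3698 and 4045 pairs differed (49.2%, 48.4% and 49.2%). Pairs within 100 nt were 19.4% at 10 ng. The SD from pairs within 30 nt was 21.3, 21.8 and 21.7 points, Pearson's r of neighbours 0.0073, 0.016 and 0.022, and rho of sites per gene with coverage 0.20, 0.24 and 0.22. Histone lysine methyltransferases had 8.08, 7.73 and 8.55 sites per listed gene at 5, 10 and 20 ng, compared with 10.7 at 100 ng.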
